A study of Mus musculus with 8 samples.

Results

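The G2 and mitosis genes described here are 58 of the 25413 genes in the authors' count table. They were taken by matching a list of gene symbols that act from late G2 to the end of cell division. Each symbol was found in 1 row, and all 58 passed the filter on low counts. By role they form 8 groups: 10 kinetochore and centromere genes, 8 kinesins, 8 genes of the spindle checkpoint, the anaphase-promoting complex and separase, 12 cyclins, kinases and regulators of mitotic entry, 4 genes of the chromosomal passenger complex, 10 spindle assembly genes, 4 cytokinesis genes and 2 genes of the mitotic chromosome.

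The study sequenced polyadenylated RNA of spheroids, rounded cell aggregates grown in culture, from 2 mouse mammary lines. EpH4 carries the wildtype genotype in the labels, and EpH4-AS is labelled AS-transformed, with the meaning of AS not spelled out. Each line was grown without or with PM2.5, the fine fraction of airborne dust. The dose and the length of exposure are not stated in the sources used here. The 4 groups are untreated EpH4, EpH4 with PM2.5, untreated EpH4-AS and EpH4-AS with PM2.5, with 2 libraries each from 1 batch.

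Before division a cell in G2 accumulates cyclins A and B, which switch on the kinase CDK1 and drive it into mitosis. The chromosomes are then condensed, captured at their kinetochores by spindle microtubules, held by a checkpoint until all are attached, and pulled apart once the anaphase-promoting complex destroys securin and cyclin B. Most of these genes are transcribed only in cycling cells, late in the cycle, through the MYB-MuvB and FOXM1 factors, and are shut off in resting cells by the DREAM complex. MuvB binds the cell cycle genes homology region, or CHR, and NF-Y binds CCAAT boxes close to the transcription start. Transcript levels of Mki67 and Top2a are in common use as marks of proliferation, and in the mammary gland the same genes follow the dividing epithelium.

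Those letters could be looked for in 48 of the 58 genes, the ones with a window in the RefSeq promoter table (GRCm38.p6, 250 bases before to 50 bases after the start). CHR letters were searched as TTTGAA or TTCGAA and CCAAT boxes as CCAAT, on both strands, and a base could count towards both. CHR letters stood in 35 of the 48 windows (72.9%), against 16.2% of the windows of 15401 genes of the count table. CCAAT stood in 36 (75%) against 38.8%, and at least 2 copies of it in 24 (50%) against 13.7%. Both motifs were in 30 windows (62.5%) against 6.86%. The upstream letters of 5 genes are shown to let the spacing be seen, in lower case with each match in capitals, 5′ to 3′ on the strand of the gene and with any base in an annotated exon left off. Top2a (chr11:99024190-99024439, minus strand) has the most matches, Mki67 (chr7:135716380-135716629, minus strand) and Cdk1 (chr10:69352939-69353162, minus strand) have CHR letters beside CCAAT boxes, Cdc20 (chr4:118437353-118437593, minus strand) has 1 of each in the letters shown, and Anln (chr9:22389207-22389456, minus strand) has no match before its start.
Top2a: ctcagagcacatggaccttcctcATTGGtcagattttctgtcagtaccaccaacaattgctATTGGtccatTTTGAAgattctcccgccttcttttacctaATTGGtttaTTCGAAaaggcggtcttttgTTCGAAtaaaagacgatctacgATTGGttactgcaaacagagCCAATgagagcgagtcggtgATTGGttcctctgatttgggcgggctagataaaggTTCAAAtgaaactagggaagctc
Mki67: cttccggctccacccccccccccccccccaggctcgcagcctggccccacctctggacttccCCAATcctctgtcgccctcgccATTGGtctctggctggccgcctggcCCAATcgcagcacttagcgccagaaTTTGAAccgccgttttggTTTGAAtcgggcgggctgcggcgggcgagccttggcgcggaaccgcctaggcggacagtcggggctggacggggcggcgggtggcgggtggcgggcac
Cdk1: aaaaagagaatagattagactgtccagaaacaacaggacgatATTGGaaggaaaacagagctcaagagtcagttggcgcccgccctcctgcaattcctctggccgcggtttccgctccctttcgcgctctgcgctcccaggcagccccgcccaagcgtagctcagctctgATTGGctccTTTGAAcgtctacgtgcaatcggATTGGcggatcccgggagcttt
Cdc20: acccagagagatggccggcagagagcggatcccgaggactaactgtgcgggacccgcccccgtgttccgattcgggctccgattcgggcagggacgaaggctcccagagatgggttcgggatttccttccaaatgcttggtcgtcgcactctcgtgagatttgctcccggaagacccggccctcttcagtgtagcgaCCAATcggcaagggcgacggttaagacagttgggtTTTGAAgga
Anln: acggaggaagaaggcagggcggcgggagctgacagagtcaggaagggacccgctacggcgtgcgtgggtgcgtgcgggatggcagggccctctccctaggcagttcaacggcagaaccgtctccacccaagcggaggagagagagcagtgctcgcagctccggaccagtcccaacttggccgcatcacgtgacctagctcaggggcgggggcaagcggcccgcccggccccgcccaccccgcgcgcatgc
In Top2a, 6 CCAAT boxes and 4 sets of CHR letters are spread through the 250 bases, and in Mki67, Cdk1 and Cdc20 the CHR letters lie downstream of a CCAAT box. In Anln 2 sets of CHR letters lie after the start, at bases 22 and 29. A match is a run of letters, not a measured binding site.

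Levels are CPM, which puts the counts of each library on one common total by TMM factors, given per library in the order replicate 1, replicate 2. Fold changes are on a log2 scale with a standard error (SE), and adjusted p values come from the edgeR quasi-likelihood test with Benjamini-Hochberg adjustment over all 13716 tested genes, with a threshold of 0.05. Separate cultures for the libraries of one group are not stated in the labels, and p values then cover only the spread among these libraries, possibly a technical one. Total counts ran from 15393256 to 27765982. Reads outside exons made up 11.3% to 12.5% of gene reads in EpH4 and 3.39% to 3.59% in EpH4-AS, and for the G2 and mitosis genes alone 9.68% to 13.5% and 1.14% to 1.37%. The label epithelial was not borne out by the markers: Epcam, Cdh1, Krt8 and Krt18 stayed below 1 CPM in every library, while the mesenchymal genes Vim and Fn1 were at 2048 to 4707 and at 2111 to 12085 CPM. Of the 16 epithelial markers 4 passed the filter on low counts, and their summed level was 5.01 to 11 CPM in EpH4 and 2.41 to 3.04 CPM in EpH4-AS. The summed level of 17 mesenchymal markers was 15344 to 17457 CPM in EpH4 and 7072 to 8010 CPM in EpH4-AS. That of 9 leukocyte markers was 229 to 298 and 39.9 to 43.2 CPM, and of 6 endothelial markers at most 1.09 CPM. A few genes make up the leukocyte sum, as 6 of the 9 averaged under 1 CPM in each EpH4 group and 7 in each EpH4-AS group. Of 16 tested mesenchymal markers 7 were higher and 9 lower in untreated EpH4-AS than in untreated EpH4, against 43.6% and 45.7% of all tested genes.

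Together the 58 genes took up 0.0978% and 0.0675% of all counts without PM2.5 in EpH4. In EpH4 with PM2.5 they took 0.177% and 0.175%, in untreated EpH4-AS 0.266% and 0.265%, and in EpH4-AS with PM2.5 0.249% and 0.276%. Untreated EpH4 was thus the lowest group, EpH4 with PM2.5 came next, and the EpH4-AS groups were highest and overlapped each other. In these bulk libraries fewer cycling cells and less RNA per cycling cell cannot be told apart. On the authors' RPKM scale, which allows levels of different genes to be compared per length, Cks2 was highest in every group, from 27.9 ± 0.505 (SD, n = 2) in untreated EpH4 to 77.7 ± 3.06 in EpH4-AS with PM2.5, and Top2a was second in every group.

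**Figure D1:**
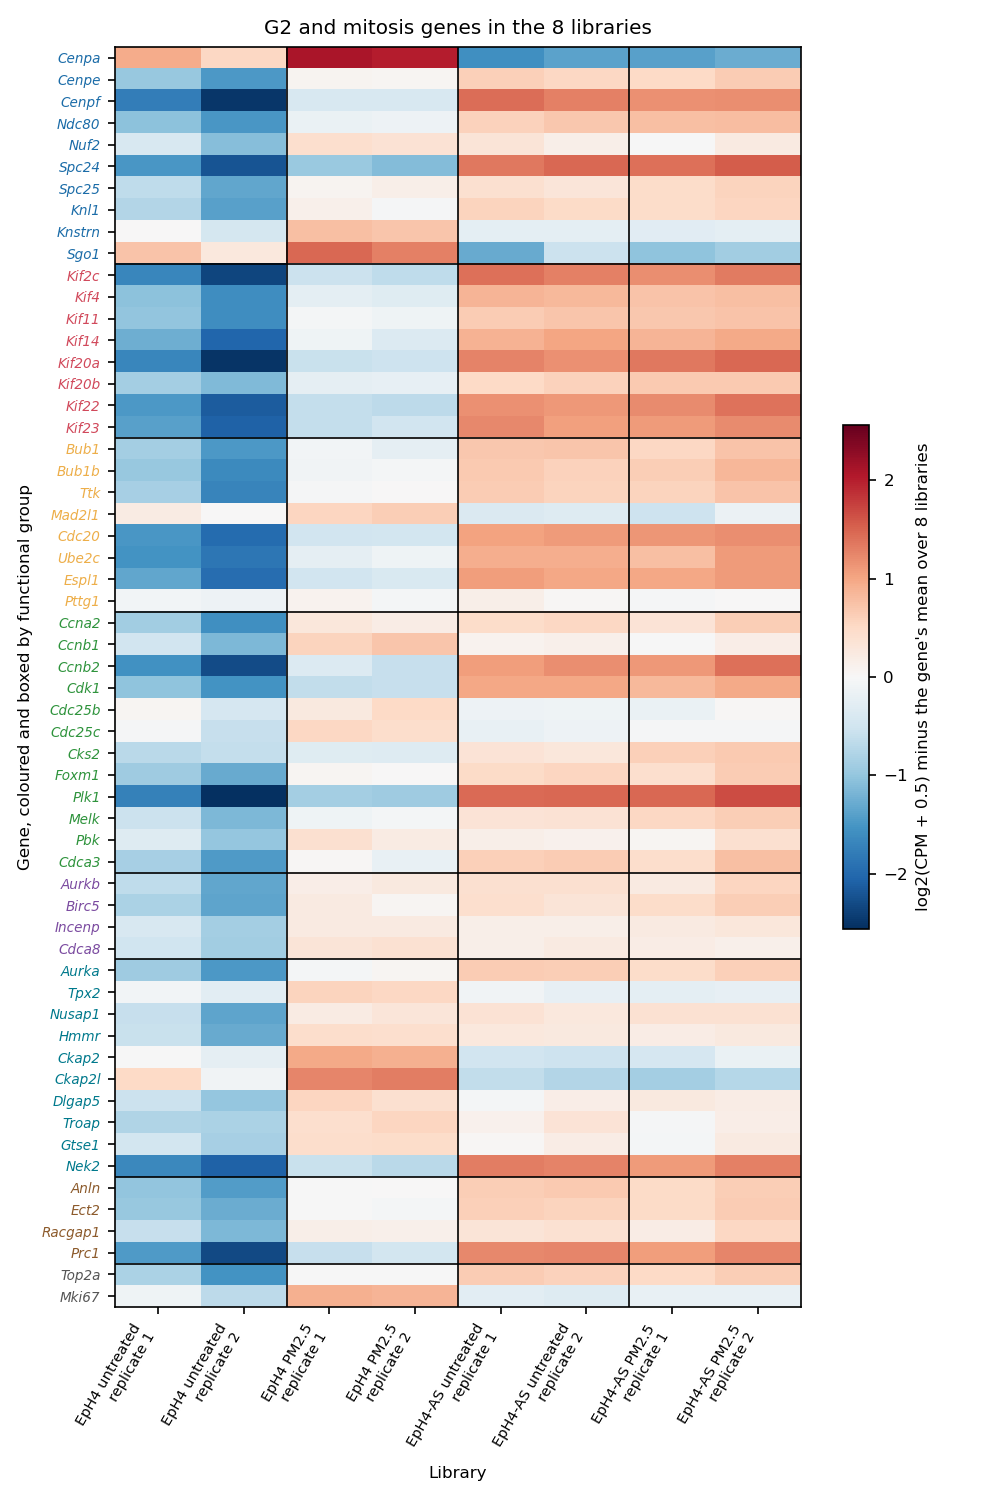
Levels of the 58 genes (rows, boxed by functional group) in the 8 libraries (columns), as log2(CPM + 0.5) minus the mean of each gene over the libraries. Most rows are lowest in untreated EpH4, whose replicate 2 is lower than its replicate 1, and the 4 EpH4-AS libraries look alike. Cenpa, Sgo1, Ckap2l, Ckap2 and Mad2l1 go the other way between the lines, lower in EpH4-AS both untreated and with PM2.5.

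The libraries of untreated EpH4 stood apart from each other for these genes. Replicate 2 was below replicate 1 in 57 of the 58, by a median log2 of -0.60, whereas over all tested genes the median difference was -0.01. Ttk differed most (-0.90), and Cks2 was the exception (0.07). In EpH4 with PM2.5 and in untreated EpH4-AS the median differences were -0.01 and -0.01, and in EpH4-AS with PM2.5 replicate 2 was higher by a median of 0.14. The S phase genes shared the gap in untreated EpH4, with 44 of 45 lower in replicate 2 (median -0.28), and the subunits of the anaphase-promoting complex did not (median -0.02). The 58 genes therefore move together between libraries, and a count of calls among them is not a count of independent results. The counts and medians of the 58 genes in the comparisons that use untreated EpH4 are also given below without each of its libraries.

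**Figure D2:**
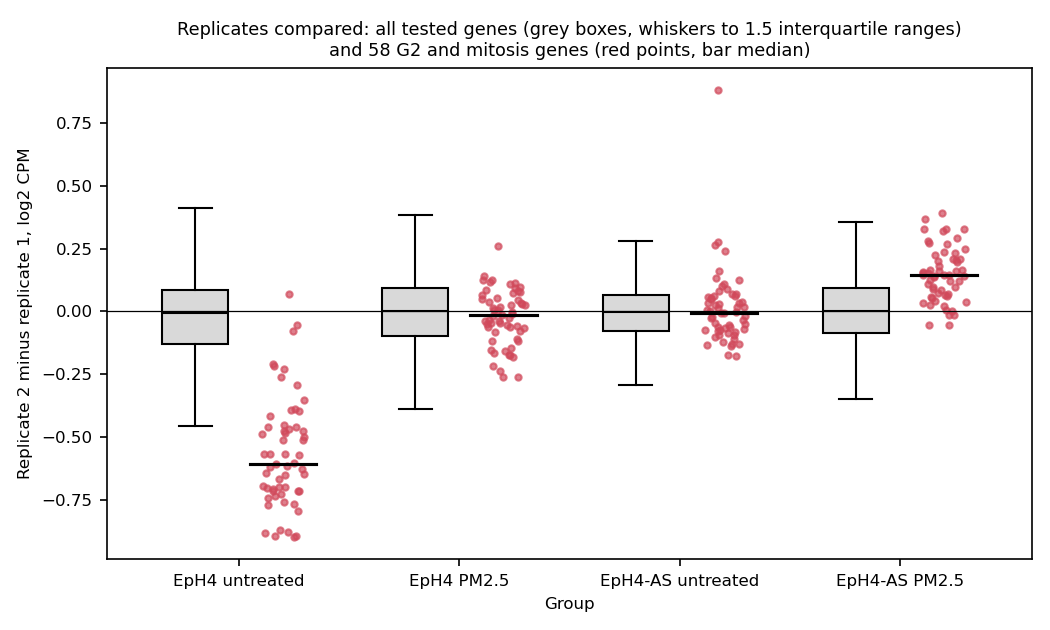
Log2 CPM of replicate 2 minus replicate 1 in each of the 4 groups, for all tested genes (grey boxes) and for the 58 G2 and mitosis genes (red points, bar at the median). In untreated EpH4 all red points but Cks2 lie below 0, with a median of -0.60. In EpH4-AS with PM2.5, 54 of the 58 lie above 0, with a median of 0.14. In the other groups they lie on both sides of 0.

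The first comparison asked what PM2.5 exposure did in the wildtype line. In EpH4, 57 of the 58 genes rose and 0 fell, against 14.3% of all tested genes rising and 12.9% falling. The median change was 1.17 on the log2 scale, or 2.25-fold, and 43 genes more than doubled. In all 58 genes both PM2.5 libraries were above both untreated libraries, which held for 31% of all tested genes. Without replicate 2 of untreated EpH4, the low one, the median change was 0.89 and 56 genes passed, Spc24 being the one lost (adjusted p = 0.0674). Without replicate 1 it was 1.52 and 57 passed. Other measures also moved with PM2.5 in EpH4. Mitochondrial transcripts took 2.72% and 2.21% of counts untreated and 4.23% and 5.03% with PM2.5. The summed epithelial markers were at 5.38 and 5.01, then 10.2 and 11 CPM, with 1 of the 4 tested markers called, Krt14 (3.31 and 3.02, then 8.31 and 8.88 CPM). The summed mesenchymal markers were at 17457 and 16996, then 15344 and 15882 CPM, with 2 called higher and 3 lower of 16 tested. The part of these in the rise of the 57 genes was not tested.

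Among the kinetochore genes all 10 rose. Cenpf, a large protein of the outer kinetochore, was at 11.5 and 6.84 CPM untreated and at 30.4 and 30.5 CPM with PM2.5. Its change of 1.72 ± 0.14 (SE, adjusted p = 3.13e-06) was the largest of the 58. Cenpe, the kinesin motor that tethers kinetochores to microtubules, went from 16.8 and 11.7 to 34.8 and 34.5 CPM (1.28 ± 0.11). Cenpa, the histone H3 variant that marks the centromere, went from 6.18 and 4.49 to 14.2 and 13.4 CPM (1.36 ± 0.14). The 4 subunits of the NDC80 complex, which binds microtubules, changed by 0.88 (Spc24), 1.11 (Spc25), 1.16 (Ndc80) and 1.18 (Nuf2). The median of all 58 genes was 1.17, and Spc24 was at 0.52 without replicate 2 of untreated EpH4. Knl1, Knstrn and Sgo1, the protector of centromeric cohesion, rose by 1.11, 0.96 and 0.91.

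All 8 kinesins, the motors of the spindle and midzone, rose. Kif23, the motor of the centralspindlin complex, was at 15.7 and 9.62 CPM untreated and at 27.2 and 29.7 CPM with PM2.5 (1.16 ± 0.15). Kif20a, which carries the passenger complex to the midzone, was at 9.09 and 4.85, then at 20 and 20.5 CPM, and its 1.53 ± 0.17 was the largest change of a kinesin. Kif11, the motor that pushes the spindle poles apart, had the smallest p value of the kinesins, at 14.3 and 9.35, then 28 and 26.9 CPM (1.21 ± 0.13, adjusted p = 1.96e-05). The depolymerase Kif2c rose by 1.46, Kif14 by 1.47, Kif22 by 1.19, Kif4 by 1.04 and Kif20b, the least, by 0.79.

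Of the 8 checkpoint and anaphase genes, 7 rose. Ube2c, the ubiquitin-conjugating enzyme of the anaphase-promoting complex, went from 8 and 6.24 to 20.3 and 22.2 CPM (1.57 ± 0.13, adjusted p = 2.96e-06). Cdc20, its activator, went from 8.14 and 5.69 to 16.8 and 17.1 CPM (1.28 ± 0.12). The checkpoint kinases Bub1 and Ttk and the checkpoint protein Bub1b rose by 1.02, 1.25 and 1.22, and separase, Espl1, by 1.22. Mad2l1, which holds Cdc20 inactive, rose by only 0.48 ± 0.10 (22.9 and 19.7, then 29.1 and 30.7 CPM). Securin, Pttg1, the inhibitor of separase, did not pass the test, at 11.9 and 11.2 CPM untreated and 13.3 and 11.9 CPM with PM2.5 (0.13 ± 0.10, adjusted p = 0.387). It was the only member of the 58 that did not.

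All 12 genes of mitotic entry rose. The cyclin genes changed most: Ccnb1 went from 7.82 and 4.73 to 16.8 and 18.6 CPM (1.48 ± 0.16), Ccnb2 from 8.47 and 4.93 to 20.3 and 17.0 CPM (1.47 ± 0.18) and Ccna2 from 24.1 and 14.8 to 55.6 and 51.3 CPM (1.45 ± 0.15). Their kinase Cdk1 changed less, from 24.8 and 17.5 to 33.2 and 34.1 CPM (0.66 ± 0.11, adjusted p = 0.000735). Foxm1, the transcription factor of the G2 programme, was at 19.1 and 14.6, then 37.3 and 36.5 CPM (1.13 ± 0.10, adjusted p = 7.83e-06), and polo-like kinase, Plk1, at 8.54 and 4.61, then 16.0 and 15.6 CPM (1.25 ± 0.17). The phosphatases that activate CDK1, Cdc25b and Cdc25c, rose by 0.56 and 0.87, the kinases Melk and Pbk by 0.76 and 0.99, and Cdca3 by 1.12. Cks2, a small subunit bound to CDK1, had the smallest rise of the called genes, 0.34 ± 0.07, from 22.8 and 23.9 to 29.5 and 29.3 CPM.

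The passenger complex, in which Aurora B kinase is held by INCENP, survivin and borealin, rose in all 4 subunits. Aurkb was at 9.45 and 5.69, then 17.0 and 18 CPM (1.20 ± 0.17), Birc5, which encodes survivin, at 11.6 and 7.79, then 24.4 and 21.6 CPM (1.24 ± 0.14), and Cdca8, which encodes borealin, at 10.9 and 8.23, then 19.8 and 20.8 CPM (1.08 ± 0.11, adjusted p = 1.81e-05). Incenp, the scaffold and the most abundant subunit in CPM, was at 33.8 and 24.4, then 52.9 and 53.1 CPM (0.86 ± 0.10).

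All 10 spindle assembly genes rose as well. Tpx2, the activator of Aurora A, was the most abundant in CPM, at 55.2 and 47.8, then 86.1 and 83.4 CPM (0.72 ± 0.07). Ckap2 had the smallest p value of the group, at 20.5 and 17.5, then 40.8 and 39.2 CPM (1.07 ± 0.09, adjusted p = 4.2e-06). Nek2, a kinase that splits the centrosomes, was at 8.29 and 6.01, then 18.1 and 16.6 CPM (1.27 ± 0.13). The other members, Aurka, Nusap1, Hmmr, Ckap2l, Dlgap5, Troap and Gtse1, changed by between 1.05 (Ckap2l) and 1.43 (Troap).

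The 4 cytokinesis genes rose by 1.0 to 1.30. Anln, the scaffold anillin of the contractile ring, was at 48.8 and 36.6, then 99.0 and 99.8 CPM (1.21 ± 0.10, adjusted p = 2.3e-06). Prc1, which bundles the midzone microtubules, was at 24.4 and 13.2, then 44.8 and 48.5 CPM (1.30 ± 0.17). Ect2, the exchange factor that switches on RhoA, and its partner Racgap1 rose by 1.1 and 1.0. Both genes of the mitotic chromosome rose: Top2a, topoisomerase II alpha, at 93.5 and 57.0, then 163 and 163 CPM (1.11 ± 0.14), and Mki67, the coat protein of mitotic chromosomes, at 92.7 and 62.4, then 188 and 182 CPM (1.25 ± 0.12).

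**Figure D3:**
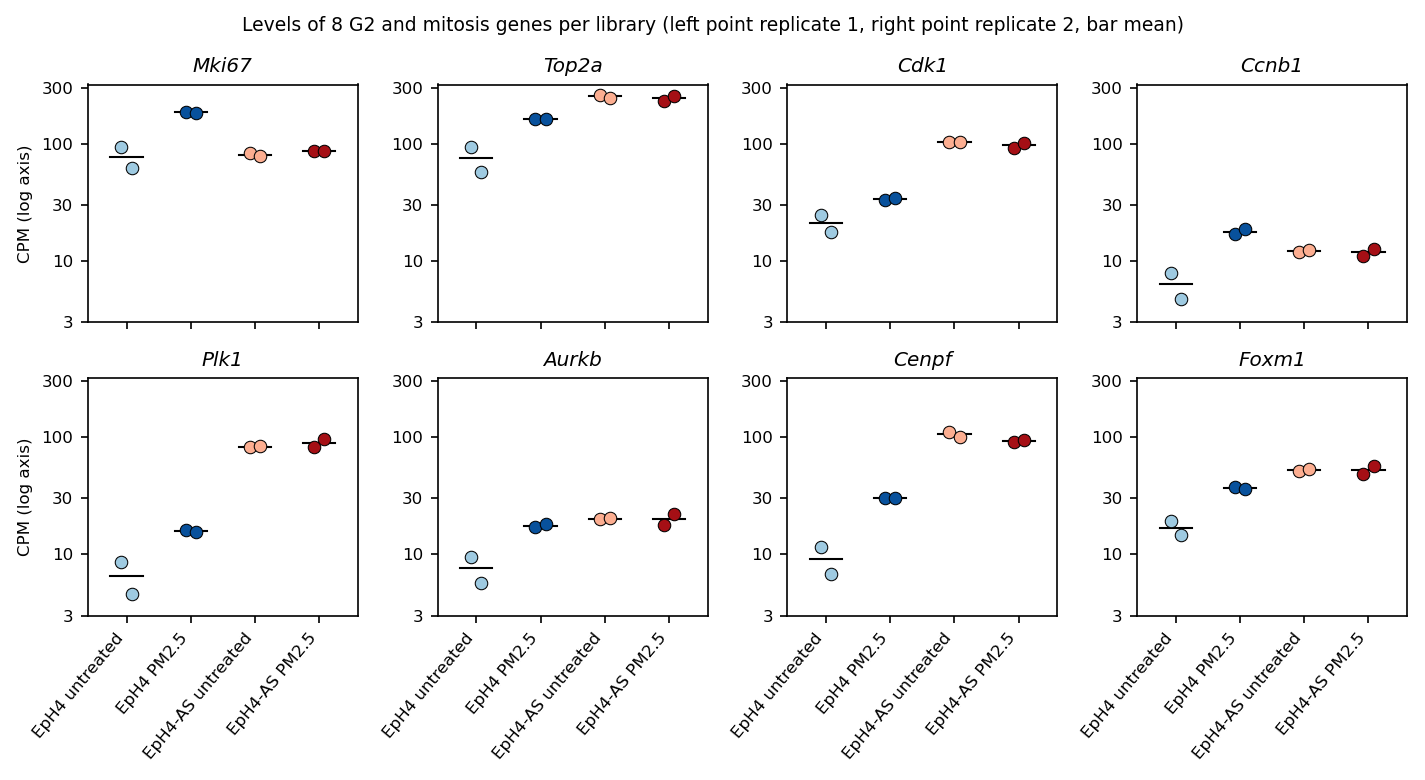
CPM of 8 of the genes in each library on a log axis, with the left point for replicate 1, the right point for replicate 2 and a bar at the mean of each group. In EpH4 both PM2.5 libraries lie above both untreated ones for all 8 genes, and in EpH4-AS the groups overlap or lie close together. Mki67 and Ccnb1 are highest in EpH4 with PM2.5, the others in EpH4-AS.

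The same exposure was then compared in the transformed line. In EpH4-AS 1 of the 58 genes rose and 0 fell, also at an unadjusted p under 0.05 and with DESeq2, while 11.1% of all tested genes passed in either direction. The median change was 0.01, with the extremes at -0.19 (Cenpf) and 0.32 (Cks2). Cks2 was the one called, at 47.4 and 45.3 CPM untreated and 56.5 and 59.3 CPM with PM2.5 (0.32 ± 0.06, adjusted p = 0.00572). It lost the call without replicate 2 of untreated EpH4-AS (adjusted p = 0.0889) or replicate 2 of exposed EpH4-AS (0.0668).

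The genes that rose in EpH4 lay at close levels in both EpH4-AS groups. Plk1 was at 82.4 and 83.5 CPM untreated and 83.2 and 95.8 CPM with PM2.5 (0.11 ± 0.12, adjusted p = 0.62). Cdk1 was at 103 and 103, then 92.3 and 102 CPM, Top2a at 258 and 247, then 233 and 255 CPM, and Mki67 at 82.5 and 79.1, then 86.8 and 87.3 CPM. Ccnb1 was at 12.0 and 12.3, then 11.1 and 12.6 CPM, Aurkb at 20.2 and 20.2, then 17.7 and 22.2 CPM, and Foxm1 at 51.2 and 53.2, then 48.6 and 56.8 CPM. In these 7 genes the groups overlapped except for Mki67, higher in both PM2.5 libraries, and Cdk1, lower in both, and none passed. Cenpf was lower with PM2.5 in both libraries, at 91.7 and 93.9 against 111 and 101 CPM, without passing (adjusted p = 0.303). With a fit to the EpH4-AS libraries alone 4 genes passed: Cks2, Melk and Kif20a higher and Cenpf lower (adjusted p = 0.00959). That fit called more genes in general, 2995 of 11661 tested, against 1529 of 13716 in the main model. The 4 calls are not read as a response of these genes.

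**Figure D4:**
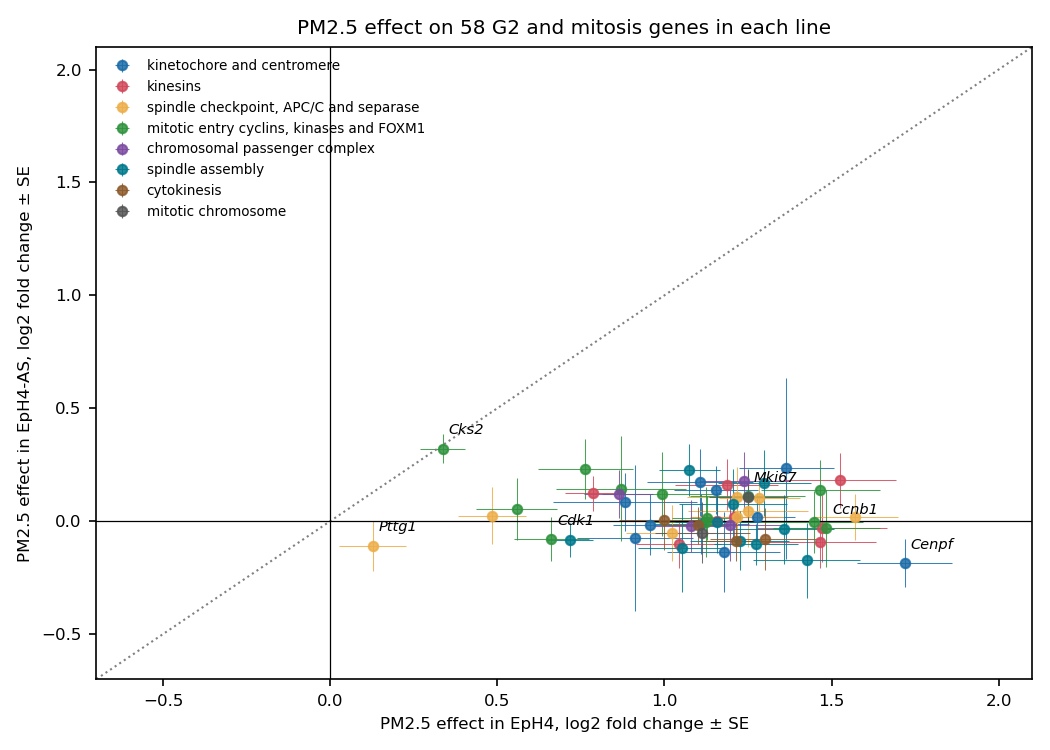
Log2 change with PM2.5 in EpH4 (x axis) and EpH4-AS (y axis) for the 58 genes, coloured by functional group, with SE bars and a dotted line of equal change. The points spread from 0.13 (Pttg1) to 1.72 (Cenpf) along the x axis and stay between -0.19 and 0.32 on the y axis, and Cks2 lies on the line.

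Whether the exposure effect differed between the lines was tested as an interaction, the change in EpH4-AS minus the change in EpH4. It was called negative in 50 of the 58 genes and positive in 0, against 6.49% and 7.6% of all tested genes. The median was -1.13. Cenpf had the largest difference (-1.91 ± 0.18, adjusted p = 3.21e-05), followed by Troap (-1.60), Kif2c (-1.56) and Ube2c (-1.55). Anln (-1.30 ± 0.13, adjusted p = 4.72e-05) and Nek2 (-1.38 ± 0.16, adjusted p = 0.000111) had the smallest p values of the cytokinesis and spindle genes. All 8 kinesins, 10 spindle assembly genes, 4 passenger genes and 4 cytokinesis genes were called, as were 8 of 10 kinetochore genes, 6 of 8 checkpoint genes, 8 of 12 entry genes and both chromosome genes. The call for Spc24 was lost in 11 of 16 alternatives and that for Pbk in 8. With DESeq2, Spc24 (adjusted p = 0.0559), Pbk (0.0599) and Plk1 (0.0506) missed the threshold. Over all alternatives, TREAT included, 15 of the 58 genes kept the same outcome.

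The 8 genes without a called interaction were Cenpa (-1.13 ± 0.44, adjusted p = 0.104), Sgo1, Mad2l1, Pttg1, Cdc25b, Cdc25c, Melk and Cks2. For Cks2 the difference was -0.02 ± 0.09, since it changed by nearly equal amounts in both lines. Cenpa and Sgo1 were at 0.662 to 2.85 CPM in EpH4-AS, and their changes there had SEs of 0.40 and 0.32. Without replicate 2 of untreated EpH4 48 interactions were called, with a median of -0.88, and without replicate 1 56 were, with a median of -1.47. Against a difference of at least 1.5-fold, tested with TREAT, 13 were called. Over all 13716 tested genes TREAT called 66 interactions, where the main test called 1932.

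Transformation was addressed by comparing the untreated lines. EpH4-AS had higher levels in 47 of the 58 genes and lower levels in 5, in a contrast where 43.6% of all tested genes were higher and 45.7% lower. The median was 1.61, or 3.06-fold. Without replicate 1 of untreated EpH4 54 genes were called in either direction, with a median of 1.86, and without replicate 2 also 54, with a median of 1.43. Most genes of the table passed in this contrast, with a near even split of directions, whereas 47 of the 52 called G2 and mitosis genes were higher in EpH4-AS. Mitochondrial transcripts (2.72% and 2.21% of counts in untreated EpH4, 0.219% and 0.246% in EpH4-AS), the reads outside exons and the summed mesenchymal and leukocyte markers also differed between the lines, and their part in these differences was not tested.

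Plk1 had the largest difference, 8.54 and 4.61 CPM in EpH4 against 82.4 and 83.5 CPM in EpH4-AS (3.64 ± 0.15, adjusted p = 6.54e-12). Cenpf followed with 11.5 and 6.84 against 111 and 101 CPM (3.52 ± 0.13), then Kif2c with 5.2 and 3.02 against 47.9 and 43.7 CPM (3.46 ± 0.15) and Spc24 with 2.98 and 1.59 against 24.2 and 26.4 CPM (3.45 ± 0.17). Nek2 had the smallest p value of the 58, with 8.29 and 6.01 against 67.9 and 66.3 CPM (3.22 ± 0.11, adjusted p = 1.03e-12). No library of one line overlapped the other in these genes. All kinesins (1.57 for Kif20b to 3.46), all passenger genes (0.78 for Incenp to 1.48 for Birc5) and all cytokinesis genes (1.23 for Racgap1 to 3.08 for Prc1) were higher in EpH4-AS. So were 6 checkpoint genes, with Cdc20 at 2.85 ± 0.11 and Espl1 at 2.71 ± 0.13, and 10 entry genes, with Ccnb2 at 3.09 ± 0.16, Cdk1 at 2.27 ± 0.11 and Foxm1 at 1.63 ± 0.11.

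The members of one complex or one gene family did not all differ alike between the lines. In the NDC80 complex Spc24 differed by 3.45, Ndc80 by 1.98, Spc25 by 1.36 and Nuf2 by 1.01. Cyclin B1 differed by 0.94 and cyclin B2 by 3.09. The span from the smallest to the largest value in each set is several times the SE of a single gene, 0.12 to 0.18. Differences between 2 genes, such as Spc25 and Nuf2, were not tested.

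The 5 genes lower in EpH4-AS were Cenpa, Sgo1, Ckap2l, Mad2l1 and Ckap2. Cenpa was at 6.18 and 4.49 CPM in EpH4 and 0.662 and 0.822 CPM in EpH4-AS (-2.85 ± 0.26, adjusted p = 7.87e-08), and Sgo1 at 7.67 and 5.45 against 1.51 and 2.85 CPM (-1.60 ± 0.25). Ckap2l, a spindle pole protein, was at 22.0 and 14.4 against 9.75 and 8.92 CPM (-0.97 ± 0.17), Mad2l1 at 22.9 and 19.7 against 15.1 and 15.4 CPM (-0.49 ± 0.12) and Ckap2 at 20.5 and 17.5 against 14.6 and 14.1 CPM (-0.40 ± 0.11). Both libraries of EpH4-AS were below both of EpH4 for each of the 5. On log2(RPKM + 1), Mad2l1 (adjusted p = 0.0962) and Ckap2 (0.13) did not pass.

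Mki67, Pttg1, Tpx2, Knstrn, Cdc25b and Cdc25c passed in neither direction. Mki67 was at 92.7 and 62.4 CPM in EpH4, on both sides of the 82.5 and 79.1 CPM in EpH4-AS (0.06 ± 0.12), while Top2a, its partner in the group, differed by 1.74 ± 0.14. With limma-trend on log2(RPKM + 1), Pttg1 (0.34, adjusted p = 0.00135) and Tpx2 (0.20, adjusted p = 0.0317) were called higher in EpH4-AS. Scaling by library totals in edgeR also called Pttg1 higher (0.26, adjusted p = 0.0353). Of the 6 genes, 3 turned on the choice of untreated EpH4 library. Knstrn was called lower in EpH4-AS without replicate 2 (-0.27, adjusted p = 0.0153), and Cdc25b was called higher without replicate 1 (0.30, adjusted p = 0.0159). For Mki67 the difference changed sign: without replicate 2 it was -0.19 (adjusted p = 0.00899) and without replicate 1 0.37 (adjusted p = 4.58e-05).

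With PM2.5 in both lines, comparing libraries that the untreated contrast does not use, 34 genes were higher in EpH4-AS, 13 lower and 11 not called, against 43.5% higher and 45.5% lower over all tested genes. The median was 0.55. Of the 47 genes higher in untreated EpH4-AS, 34 were higher with PM2.5 too, 10 were not called and 3 were lower. All 5 genes that were lower untreated were lower with PM2.5. Of the 6 not called untreated, 5 were lower with PM2.5, Pttg1 being the other. Each of the 58 differences was smaller, or more negative, with PM2.5 than without. This shift is the interaction given above by construction, untreated EpH4 libraries included, and not a separate result.

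The group by group picture differed. All 8 kinesins stayed higher in EpH4-AS, from 0.80 ± 0.11 (Kif11) to 1.99 ± 0.13 (Kif20a), and so did 6 checkpoint genes, with Cdc20 at 16.8 and 17.1 against 52.5 and 55.3 CPM (1.67 ± 0.10). Plk1 (2.5 ± 0.13), Spc24 (2.65 ± 0.15), Nek2 (1.85 ± 0.10) and Prc1 (1.70 ± 0.15) kept large differences. In the passenger complex only Birc5 was still called (0.42 ± 0.12), and Aurkb was at 17.0 and 18 against 17.7 and 22.2 CPM (0.19 ± 0.15, adjusted p = 0.243). The call for Birc5 depended on replicate 2 of exposed EpH4-AS, without which its difference was 0.35. Of the spindle assembly genes 2 were higher, Nek2 and Aurka, and 5 lower: Tpx2, Ckap2, Ckap2l, Troap and Gtse1.

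The 3 genes that went from higher to lower were Ccnb1, Troap and Gtse1. Ccnb1 was at 16.8 and 18.6 CPM in exposed EpH4 and 11.1 and 12.6 CPM in exposed EpH4-AS (-0.58 ± 0.15, adjusted p = 0.00266), after 7.82 and 4.73 against 12.0 and 12.3 CPM untreated (0.94 ± 0.18). Mki67 was lower in exposed EpH4-AS, at 86.8 and 87.3 against 188 and 182 CPM (-1.09 ± 0.12, adjusted p = 5.15e-07), and Tpx2 at 48.8 and 49.8 against 86.1 and 83.4 CPM (-0.78 ± 0.07). Cenpa had the largest difference of all, 14.2 and 13.4 against 0.817 and 0.923 CPM (-3.98 ± 0.22, adjusted p = 1.5e-10). The calls for Ccnb1 (adjusted p = 0.0533), Troap and Gtse1 were lost on log2(RPKM + 1), and those for Gtse1 and Troap also without replicate 1 of exposed EpH4-AS.

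**Figure D5:**
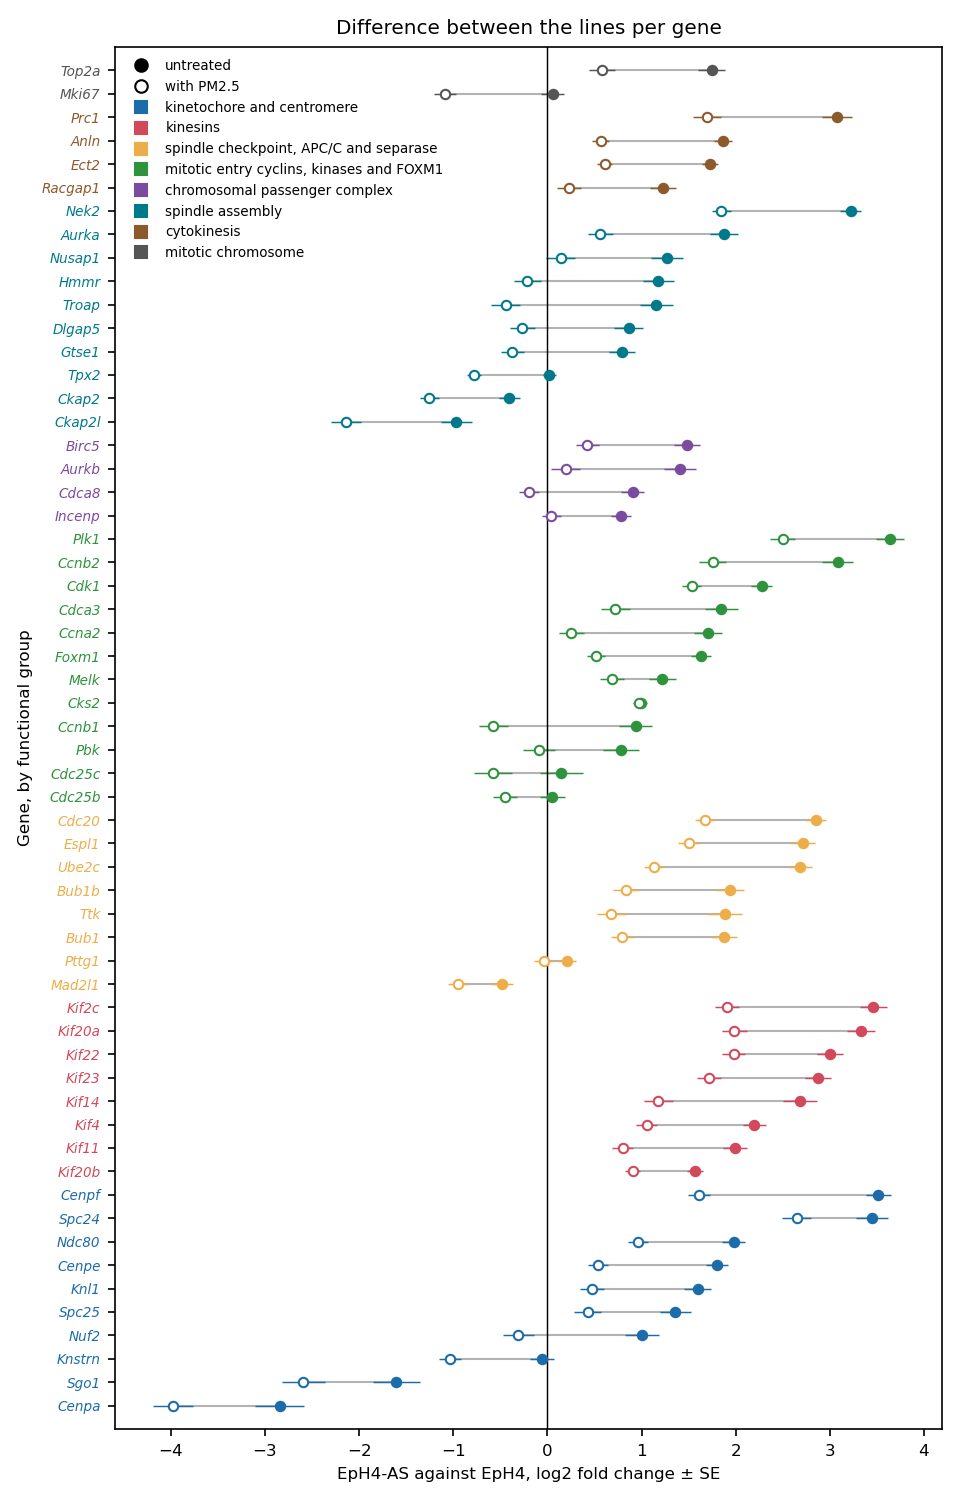
Log2 difference of EpH4-AS against EpH4 with SE bars for each gene, untreated (filled) and with PM2.5 (open), sorted within functional groups. Each open point lies left of its filled point by the size of the interaction, Cks2 by the least. The open points of the spindle assembly and passenger genes fall around 0 while those of the kinesins stay above it.

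Genes with and without CHR letters had close median exposure effects. In EpH4 the median change with PM2.5 was 1.19 for the 35 genes with CHR letters and 1.18 for the 13 without. Between the untreated lines the medians were 1.88 and 1.01, and between the exposed lines 0.80 and -0.03, with wide ranges in both sets (untreated, -2.85 to 3.64 with the letters and -0.49 to 3.22 without). Pttg1, which did not pass the test, has neither motif in its window. Birc5, Knstrn, Mad2l1, Melk, Nuf2 and Nusap1 have neither motif too, and all of them rose in EpH4. Cks2, which changed alike in both lines, has 4 CCAAT boxes and no CHR letters. So do Ccnb1, Cenpe, Gtse1, Nek2 and Troap have CCAAT boxes without CHR letters, and their interactions were called. Cdk1 has 2 CHR matches, of which 1 lies in the letters printed above, and 3 CCAAT boxes, and Anln, with none before its start, rose more than Cdk1 (1.21 against 0.66).

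Other genes of the cell cycle were followed by lists. Over all tested genes 14.3% rose and 12.9% fell with PM2.5 in EpH4, and 6.39% rose and 4.75% fell in EpH4-AS. Interactions were positive in 7.6% of them and negative in 6.49%. In EpH4-AS 4.76% of further G2 and mitosis genes, 4.44% of S phase genes and 4.35% of DREAM and E2F factors rose. Each share is below 6.39%. Of condensin and cohesin genes 11.1% fell there. These small counts are not read as results about the lists. Of 63 further G2 and mitosis genes 43 rose and 0 fell with PM2.5 in EpH4 (median 0.69), 3 rose in EpH4-AS, and the interaction was negative in 31 and positive in 1. The smallest p values in EpH4 were those of Arhgap11a (46.0 and 43.3, then 81.6 and 81.2 CPM, 0.87 ± 0.06), Psrc1 (1.01 ± 0.08) and the spindle pole gene Aspm (8.07 and 5.33, then 18.9 and 18.5 CPM, 1.47 ± 0.13). With DESeq2 called interactions in this list fell from 32 to 19, and those over all genes from 1932 of 13716 to 1248 of 10657. The list count also fell without replicate 2 of untreated EpH4, replicate 1 of exposed EpH4-AS or either library of untreated EpH4-AS. In each of these fits 1 group has a single library, and called interactions over all genes fell too. In EpH4-AS the 3 that rose were Hjurp, the chaperone that loads CENP-A (10.2 and 11.4, then 13.8 and 16.7 CPM), Zwint and Cenpt, and this count was 0 to 9 over the alternatives.

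Of 45 S phase and replication genes 32 rose and 1 fell in EpH4 (median 0.33), against 14.3% and 12.9% of all tested genes. Those that rose included Mcm10 (0.97 ± 0.12), Rrm2 (1.15 ± 0.15) and Clspn (0.99 ± 0.14). Calls in this list dropped without replicate 2 of either EpH4 group, and so did calls over all tested genes. In EpH4-AS 2 rose, Gmnn and Gins3 (0 to 9 over the alternatives), and 19 interactions were negative, a count between 8 and 30 when single libraries were left out. Of 18 condensin and cohesin genes 8 rose and 3 fell in EpH4, with the condensin subunits Ncaph (1.13 ± 0.12) and Ncapg (1.01 ± 0.12) up and the cohesin subunit Smc3 down (-0.45 ± 0.06), and 2 fell in EpH4-AS, a count that was 0 without any one of the EpH4-AS libraries. Of 16 subunits of the anaphase-promoting complex 0 rose and 4 fell in EpH4, by small amounts such as -0.19 ± 0.05 for Anapc5, and 1 to 2 calls were left without replicate 2 of untreated EpH4 or either exposed EpH4 library. Of 12 G1 cyclins and kinases 5 rose in EpH4, with Ccnd1 first (0.42 ± 0.06), 3 without either untreated EpH4-AS library and 1 without replicate 2 of either EpH4 group. In EpH4-AS 0 of the 12 were called by edgeR, DESeq2 or limma-trend, with 3 at an unadjusted p under 0.05 in edgeR.

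Of 23 factors of the DREAM, MYB-MuvB and E2F families 8 rose and 1 fell in EpH4, and 1 rose in EpH4-AS (0 to 2 called with single libraries left out). Mybl2, the MYB subunit that activates G2 genes, went from 8.25 and 6.36 to 15.7 and 13.5 CPM (1.0 ± 0.13) and was at 83.3 and 87.4 CPM in untreated EpH4-AS (3.54 ± 0.11 against EpH4). Its relative Mybl1 rose by 0.74 ± 0.07 and the repressor E2f8 by 1.18 ± 0.13. Lin9, a MuvB subunit, rose by 0.44 ± 0.10, while E2f1 (0.21 ± 0.09, adjusted p = 0.0975) and the pocket protein Rbl2 (-0.01 ± 0.06) did not pass. Of 7 tested CDK inhibitors 2 rose and 1 fell in EpH4: Cdkn1a, which encodes p21, went from 560 and 584 to 707 and 701 CPM (0.30 ± 0.07), Cdkn3 rose by 1.31 ± 0.19 and Cdkn2b fell by 0.38 ± 0.06. Without replicate 1 of untreated EpH4 5 of the 7 were called. Of all tested genes 14.3% rose and 12.9% fell. Between the untreated lines Cdkn1a was lower in EpH4-AS, at 52.7 and 58 CPM (-3.37 ± 0.08), and Cdkn3 was higher, at 34.0 and 34.6 against 1.60 and 1.19 CPM (4.60 ± 0.14).

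In the untreated lines the further G2 and mitosis genes split more than the 58 did, with 39 of 63 higher and 16 lower in EpH4-AS. Zwint, a kinetochore protein, was at 109 and 107 CPM in EpH4 and 4.09 and 4.11 CPM in EpH4-AS (-4.72 ± 0.08), and Hjurp at 227 and 229 against 10.2 and 11.4 CPM (-4.40 ± 0.08). Both lie on the side of Cenpa. Of the S phase genes 30 were higher and 12 lower, of condensin and cohesin 15 and 3, of the anaphase-promoting complex 10 and 5, of the DREAM and E2F factors 11 and 6, and of the G1 genes 7 and 4. These differences are read against the 43.6% of all genes higher and 45.7% lower.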

How the data were processed

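RNA sequencing of 8 libraries (4 groups of 2) was analysed from the authors' deposited tables. The deposited counts are whole reads per gene, with GRCm39 named as the build in the submitters' processing notes, and the RPKM values were deposited by the authors as counts scaled to exon length and library reads, per the file headers. The per-library tables also held total gene reads, from which reads outside exons were taken. Not given in the sources used here are the aligner, the counter, its use of strand and its treatment of reads shared by gene copies. Groups came from the labels.

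Of 19932 genes with a count, 13716 passed filterByExpr (99.964% of counts). After TMM scaling, 1 edgeR 4.0.16 quasi-likelihood model (R 4.3.3) held all 4 groups, leaving 4 residual degrees of freedom. The biological coefficient of variation was 4.67%. There were 5 two-sided contrasts, each adjusted by Benjamini-Hochberg over all tested genes at 0.05. The SE was taken as the log2 change divided by the root of the F statistic, and the prior count for log2 CPM was 2. The script was tested on simulated data. Total counts of 15393256 to 27765982 per library set the precision, and genes near 1 CPM have wide errors.

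The 58 members, the functional groups, the 7 further cell cycle lists and the 4 marker lists were chosen with earlier results of these data known. Genes were named by a rule: in each functional group the 2 with the highest mean CPM, the smallest p value in each contrast and those that missed the threshold where most passed, plus Mki67, Top2a, Cdk1, Ccnb1, Plk1, Aurkb, Cenpf and Foxm1, with every member open to naming by level and call. In other lists it took the 3 smallest p values, and Cdkn1a, Mybl2, E2f1, Rbl2, Lin9 and Ccnd1. Vim, Fn1, Epcam and other markers were named as a check of the label.

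Promoter windows were from RefSeq (GRCm38.p6), and GENCODE M21 exons on GRCm38 were used to trim the printed letters. Each alternative changed 1 choice: scaling (library totals, or size factors from DESeq2), the test (DESeq2 1.42.0, TREAT against 1.5-fold, or limma 3.58.1 trend on log2 of RPKM + 1), the filter (absent, or 1 CPM in 2 libraries), a replicate block, a fit without the other groups, and single libraries left out, where a lone library is taken to vary as the other groups do. Genes below the filter were not tested.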

Additional observations from a re-analysis of the deposited data

Results flagged for a closer look

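The effect of PM2.5 on these genes differed between the lines, by the interaction term of the edgeR quasi-likelihood fit, in 50 of the 58. The difference, EpH4-AS minus EpH4 on the log2 scale, was -1.91 for Cenpf, -1.56 for Kif2c, -1.55 for Ube2c, -1.52 for Ccnb1, -0.74 for Cdk1 and -1.11 for Foxm1. For Plk1 it was -1.14, for Aurkb -1.21, for Cdca8 -1.10, for Nek2 -1.38, for Anln -1.30, for Top2a -1.16 and for Mki67 -1.14. Each of these genes rose in both exposed EpH4 libraries and was not called in EpH4-AS. The untreated EpH4 libraries, which enter each difference, lay apart by a median log2 of -0.60 (replicate 2 minus replicate 1) over the 58 genes. No group has more than 2 libraries, so single libraries were not tested as outliers.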

How the results depend on the processing

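With PM2.5 in EpH4 the count of called genes, 57 of 58, stayed at 56 to 57 in all alternatives but TREAT (42). Between the untreated lines 52 were called, and 49 to 54 over the alternatives. In EpH4-AS the count of 1 became 4 with only the groups compared and 0 with TREAT, and ran from 0 to 2 with single libraries left out. Between the exposed lines 47 became 30 with TREAT and 44 to 53 with single libraries left out. The interaction count of 50 became 13 with TREAT and 47 to 56 with single libraries left out. TREAT asks for more than a 1.5-fold change, which is the cause of its lower counts by construction. The cause of the other shifts was not tested. Over all 13716 tested genes TREAT called 184 with PM2.5 in EpH4 and 40 in EpH4-AS, where the main test called 3726 and 1529. TREAT called 9047 between the untreated lines, 8905 between the exposed lines and 66 interactions, where the main test called 12238, 12211 and 1932. With only the EpH4-AS groups compared, 2995 of 11661 genes passed. Calls over all genes also moved with single libraries left out, and whether any list moved more was not tested. The direction turned once with a call: Mki67 between the untreated lines was -0.19 without replicate 2 of untreated EpH4, and 0.37 without replicate 1, both past the threshold.

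The replicate numbers did not pair the samples: deviations of same-numbered libraries correlated across genes at -0.10 (EpH4) and 0.06 (EpH4-AS), and nothing in the labels ties them. A replicate block left the counts at 57, 1, 52, 47 and 50. Depth limits genes near 1 CPM, such as Cenpa in EpH4-AS.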
